A study of Homo sapiens with 96 samples.

Results

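The genes described here are the EGR transcription factors EGR1, EGR2, EGR3 and EGR4 and the EGR-binding co-repressors NAB1 and NAB2. They were read from every probe set that the array annotation ties to one of these 6 symbols, which gave 10 of the 22930 probe sets in the table and 5 of the 11874 genes named there. EGR1 had 2 probe sets, EGR3 had 1, EGR4 had 2, NAB1 had 3 and NAB2 had 2. No probe set in the annotation used here is tied to EGR2, which was not analysed here.

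RNA was measured on 96 Affymetrix arrays of MDA-MB-231, an established human breast cancer cell line, in the series 2D03 and 2D04 (monolayer, 32 arrays each) and 3D04 (3D culture, 32 arrays). All cells had reached 80% confluence and had spent 24 h in low serum before treatment. The arms were a control without EGF, EGF at 10 ng/ml, EGF with the vehicle DMSO (DMSO-EGF), and EGF with 10 uM of U0126, an inhibitor of the kinase MEK; DMSO or U0126 was given 0.5 h before EGF. Each series had 1 array per arm at 0.5, 1, 4, 8, 12, 24 and 48 h, and at 0 h 2 control arrays, 1 after DMSO alone and 1 after U0126 alone. Times are grouped below as early (0.5 to 1 h), middle (4 to 12 h) and late (24 to 48 h) windows. U0126 was the only inhibitor, so an effect of MEK inhibition and another effect of the compound cannot be told apart.

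EGR proteins are zinc finger transcription factors that bind GC-rich sites. EGR1 is an immediate early gene: growth factors activate MEK and ERK, ERK phosphorylates ternary complex factors of the ELK family, and these act with SRF at CArG boxes in the EGR1 promoter. NAB1 and NAB2 bind an inhibitory domain of EGR1 and its relatives and repress transcription from the sites they occupy, and NAB2 is itself known as an EGR1 target that closes a negative feedback loop.

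The promoters below are the 250 bases before the RefSeq start sites on GRCh38.p14, shown because EGR1, NAB1 and NAB2 changed under U0126 while EGR4 was never called. They are EGR1 at chr5:138465229-138465478 (plus strand), NAB2 at chr12:57088864-57089113 (plus strand), NAB1 at its first listed start at chr2:190648645-190648894 (plus strand) and EGR4 at chr2:73293549-73293798 (minus strand). EGR3, also never called, had 0 starts among the promoters used, and EGR2, which has no probe set, is not shown. Capitals mark matches, on either strand, to the CArG box bound by SRF, to the EGR sites GCGTGGGCG and GCGGGGGCG, and to ACGTCA, the core of the site read by CREB.
EGR1: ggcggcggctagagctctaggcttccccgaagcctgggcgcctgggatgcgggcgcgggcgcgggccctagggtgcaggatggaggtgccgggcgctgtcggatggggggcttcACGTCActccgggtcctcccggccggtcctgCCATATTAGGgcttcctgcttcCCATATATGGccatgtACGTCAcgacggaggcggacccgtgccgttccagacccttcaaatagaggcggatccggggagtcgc
NAB2: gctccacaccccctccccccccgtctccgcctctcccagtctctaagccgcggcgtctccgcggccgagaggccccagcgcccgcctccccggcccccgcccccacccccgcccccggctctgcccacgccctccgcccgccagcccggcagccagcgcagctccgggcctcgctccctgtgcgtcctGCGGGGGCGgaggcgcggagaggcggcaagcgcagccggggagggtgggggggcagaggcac
NAB1: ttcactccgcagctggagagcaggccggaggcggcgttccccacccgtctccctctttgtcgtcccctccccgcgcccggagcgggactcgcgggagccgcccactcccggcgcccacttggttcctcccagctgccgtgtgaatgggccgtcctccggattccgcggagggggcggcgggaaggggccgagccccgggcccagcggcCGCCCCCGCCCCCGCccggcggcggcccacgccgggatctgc
EGR4: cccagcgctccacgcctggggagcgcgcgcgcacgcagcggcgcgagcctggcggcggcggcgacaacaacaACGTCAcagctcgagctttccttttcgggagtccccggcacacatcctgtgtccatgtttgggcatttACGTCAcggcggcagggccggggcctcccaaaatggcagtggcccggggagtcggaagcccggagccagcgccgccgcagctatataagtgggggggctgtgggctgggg

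The EGR1 window held 2 CArG boxes, 105 to 96 and 83 to 74 bases before the start, and 2 copies of ACGTCA, 136 to 131 and 67 to 62 bases before it. A CArG box occurred in 1.16% of the 35116 promoter windows of this length, and ACGTCA in 7.1%. The NAB2 window held 1 copy of GCGGGGGCG, 62 to 54 bases before the start. The NAB1 window held 2 copies on the opposite strand that overlap each other, 42 to 34 and 36 to 28 bases before its start. GCGGGGGCG occurred in 4.72% of all windows, and GCGTGGGCG, which none of the 4 windows shown held, in 0.72%. RefSeq lists 2 more NAB1 starts: the window of the start at chromosome 2 position 190649083 held GCGTGGGCG 175 to 167 bases before it, besides the 2 copies of GCGGGGGCG, and that of the start at 190659158 held 1 ACGTCA. The EGR4 window held 2 copies of ACGTCA, 178 to 173 and 110 to 105 bases before the start. These are matches of letters only, and no binding was measured. From these starts the genes run over chr5:138465479-138469303 (EGR1), chr12:57089114-57095476 (NAB2), chr2:190648895-190692766 (NAB1) and chr2:73290929-73293548 (EGR4).

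All values are on a presumed log2 scale and relative to a reference that is not stated, so levels cannot be compared between genes, and the cell line's marker genes could not be checked for presence. Array medians lay between -0.06 and 0.03, and the medians of the middle 98% of probe sets between -1.67 and 1.87. The labels do not say whether repeats were separate cultures, so p-values measure the spread between these samples, which may be technical. The main 2D fit has no term for series, so a steady gap between 2D03 and 2D04 adds to its spread. Deviations of the 2D repeats from their group means correlated between groups (median r = 0.6). Fits with the series as a block take that gap out. A pair of arrays stood apart in the actin 5' to 3' signal, a sign of RNA quality: the U0126 arrays of 8 h and 12 h in 2D03 stood at -1.26 and -1.08, against -0.36 to 0.31 on the other 94 arrays. Results of the middle window are therefore given with and without this pair, and leaving it out moved the count of probe sets called in that window from 1447 to 539. Of the marker lists (mesenchymal line, luminal epithelium, leukocytes, fibroblasts), KRT18, a luminal keratin, was the only gene called between U0126 and DMSO-EGF in the middle 2D window (log2 -0.53, limma adjusted p = 0.0044, and 0.059 without the pair). In the middle 3D window KRT18 was lower (-0.57, adjusted p = 5.9e-06) and PTPRC, a leukocyte phosphatase, higher (0.24, adjusted p = 0.013). Late in 3D, AXL and MSN were lower and SPARC higher among 6 mesenchymal markers, and KRT19 lower and KRT8 higher among 6 luminal ones. PTPRC was higher among 4 leukocyte markers, and 0 of 6 fibroblast markers were called, where 35.2% of all probe sets were called. In the other windows 0 of these markers were called, and their part in the results was not tested.

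EGR1 was among the most variable transcripts of the whole series. Its 201694_s_at probe set had the 12th largest standard deviation of the 22406 probe sets that were not array controls (1.59, range -2.64 to 3.47), and 201693_s_at the 28th (1.21). The 3 NAB1 and 2 NAB2 probe sets had standard deviations between 0.324 and 0.439, at percentiles 82.3 to 92. EGR3 (0.122) and both EGR4 probe sets (0.141 and 0.108) lay at percentiles 16.3, 27.2 and 9.1.

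In monolayer cells EGR1 was high from the start and fell quickly when U0126 was present. In 2D03, 201694_s_at read 3.32, 3.40, 3.42, 3.19, 3.03, 2.12 and 0.31 in DMSO-EGF at 0.5, 1, 4, 8, 12, 24 and 48 h, and 2.47, 1.07, -0.57, -0.27, -0.57, -2.16 and -2.57 in U0126 at the same times. In 2D04 it read 3.36, 3.36, 2.86, 2.38, 2.03, 1.08 and 0.42 in DMSO-EGF, and 2.17, 1.27, -0.28, -0.70, -1.06, -2.11 and -2.48 in U0126. U0126 was lower at each time in both series, and the arms did not overlap within any window.

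**Figure D1:**
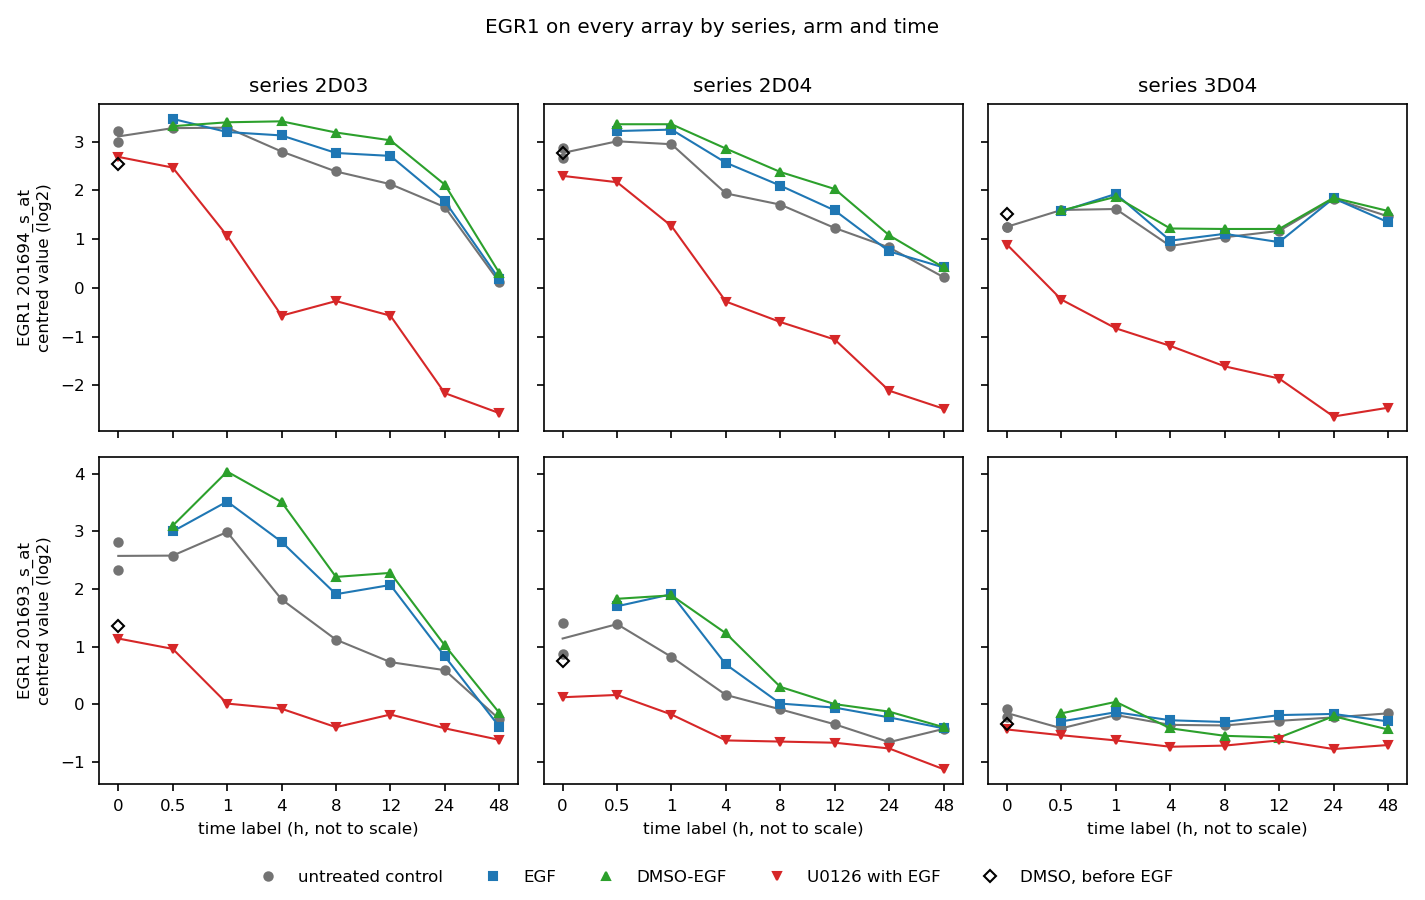
Both EGR1 probe sets by series: value on the presumed log2 scale, relative to an unstated reference, against the time label (not to scale), with 1 point per array and lines through the means of each arm. On 201694_s_at (upper row) in 2D03 and 2D04 the U0126 line lies below the other arms from 0.5 h and ends at -2.57 and -2.48 at 48 h. In 3D04 it ends at -2.46, while the other arms lie between 1.35 and 1.58 at 48 h.

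Before EGF, after pre-treatment alone, U0126 and DMSO arrays differed by log2 -0.17 (SE 0.38) on this probe set in limma's fit of the 64 2D arrays, and 0% of probe sets were called (0 of 10 members had an unadjusted p under 0.05). With EGF, in the early window, EGR1 stood 3.06-fold lower in U0126 than in DMSO-EGF (log2 -1.61, SE 0.27, limma with Benjamini-Hochberg adjustment over 22406 probe sets, adjusted p = 0.016, 4 arrays an arm). It was 1 of 10 member probe sets called, against 0.00893% of all probe sets, that is 2 of 22406. The difference was -1.59 in 2D03 and -1.64 in 2D04. The call was lost when any 1 of the 8 arrays was left out (log2 -1.69 to -1.54, adjusted p 0.053 to 0.25). In fits of a single series, with times as repeats, the limma adjusted p was 0.21 for 2D03 and 8.3e-05 for 2D04. The joint fit of the 3 series after 0 h has a term for each series and time, so times within a window serve as repeats. Its residual degrees of freedom were 36, against 33 in the 2D fit. In the joint fit the 2D03 and 2D04 differences were both called (limma adjusted p of 0.00042 and 0.00032), with 0.0446% and 0.0357% of all probe sets.

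Taken time by time, the EGR1 difference grew from log2 -1.02 at 0.5 h (adjusted p = 1) to -2.21 at 1 h (adjusted p = 0.03), where EGR1 was the single probe set called, 0.00446% of all. It read -3.57 at 4 h, -3.27 at 8 h, -3.35 at 12 h, -3.74 at 24 h and -2.89 at 48 h, and was called at each of these, so at 6 of the 7 times. At 24 h 1.89% and at 48 h 6.55% of all probe sets were called. The call at 1 h was lost without any 1 of its 4 arrays, with log2 between -2.31 and -2.11. The test of the change between windows gave -1.78 from early to middle (SE 0.35, limma adjusted p = 0.0051) and 0.08 from middle to late (adjusted p = 0.98).

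In the middle window EGR1 fell 10.5-fold (log2 -3.39, SE 0.22, limma adjusted p = 6.1e-14, 6 arrays an arm), with -3.68 in 2D03 and -3.10 in 2D04. The 7 member probe sets called in this window were all lower, in 3 genes, where 6.46% of all probe sets were called and 4.68% were called lower. The median over the 10 members was -0.912, against 0.007 over all probe sets. Without the pair of arrays with low actin ratios EGR1 stood at -3.55. In the late window EGR1 was 9.94-fold lower (log2 -3.31, SE 0.27, limma adjusted p = 2e-11) and was the only member called, against 10.3% of all probe sets. Both calls held in all 23 alternatives of the middle and all 19 of the late window.

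The second EGR1 probe set, 201693_s_at, moved the same way in 2D but with a larger gap between series. In 2D03 it read 3.10, 4.04, 3.51, 2.21, 2.28, 1.02 and -0.15 in DMSO-EGF and 0.96, 0.01, -0.08, -0.40, -0.18, -0.42 and -0.62 in U0126. In 2D04 it read 1.83, 1.89, 1.23, 0.30, 0.00, -0.13 and -0.40 in DMSO-EGF and 0.16, -0.18, -0.63, -0.65, -0.67, -0.77 and -1.13 in U0126. Every U0126 array lay below the DMSO-EGF array of its own series and time, while 2D04 as a whole lay lower than 2D03.

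For 201693_s_at the early difference was log2 -2.48 with an SE of 0.65 (limma adjusted p = 1), and 2.3e-05 once the series was a block. In the middle window it fell 4.07-fold (log2 -2.02, SE 0.53, limma adjusted p = 0.013), and without the pair of low actin ratio the call was lost (-2.15, adjusted p = 0.059). Its late difference was -0.82 (SE 0.65, adjusted p = 0.57), with U0126 lower at 4 of 4 places. With the series as a block the late adjusted p was 0.071, and the joint fit of all 3 series called it (0.00033), as it did 27.9% of all probe sets. Within that fit it was -0.95 in 2D03 (adjusted p = 0.0053, with 18.2% called) and -0.69 in 2D04 (0.049, with 20.3% called). Leaving out the 2D03 DMSO-EGF array of 4, 8 or 12 h also ended the middle call (log2 -1.64, -1.70 and -1.64, with adjusted p from 0.075 to 0.083). Array weights ended it as well (adjusted p = 0.1).

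The NAB differences were seen mainly at 4 to 12 h. NAB2 is the NAB family member known to be induced with EGR1. In 2D03 its probe set 216017_s_at read -0.57 and -0.22 at 0.5 and 1 h in DMSO-EGF, 0.91, 0.73 and 0.79 at 4, 8 and 12 h, and -0.51 and -0.22 at 24 and 48 h. In U0126 of the same series it read -0.40, -0.48, -0.88, -0.81, -1.07, -0.50 and -0.66 over the same times. The arms of 2D03 were apart at 4 to 12 h and close at the other times.

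In 2D04, 216017_s_at read 0.61, 0.29 and -0.38 in DMSO-EGF at 4, 8 and 12 h, against -0.37, -0.60 and -0.67 in U0126. The DMSO-EGF array of 12 h lay below the U0126 array of 4 h, so the arms overlapped in this series. Over both series the probe set was 2.34-fold lower in U0126 in the middle window (log2 -1.23, SE 0.15, limma adjusted p = 4.7e-07), and 1.12 lower on the log2 scale without the pair of low actin ratio (log2 -1.12, adjusted p = 7.6e-05). Its difference was -1.39 at 4 h, -1.22 at 8 h and -1.08 at 12 h, with limma adjusted p of 0.003, 0.0089 and 0.023. At these times 0.433%, 1.38% and 1.57% of all probe sets were called. Without the low actin ratio pair the U0126 arm is 1 array at 8 h and at 12 h, whose spread is taken from the other groups. The differences were then -1.11 and -0.87 and were no longer called (adjusted p of 0.22 and 0.56).

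The other NAB2 probe set, 212803_at, read 0.90, 0.82 and 0.14 in DMSO-EGF of 2D03 at 4, 8 and 12 h against -0.07, -0.49 and -0.70 in U0126. In 2D04 it read 0.34, -0.49 and -0.44 against -0.87, -1.11 and -1.17. Within each series U0126 lay below DMSO-EGF, and across series the arms overlapped. The difference was 1.93-fold (log2 -0.95, SE 0.23, limma adjusted p = 0.0081), and -1.13 (adjusted p = 0.013) without the low actin ratio pair. It was lost without the 2D03 DMSO-EGF array of 8 h (log2 -0.73, adjusted p = 0.07) and with array weights (adjusted p = 0.058).

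**Figure D2:**
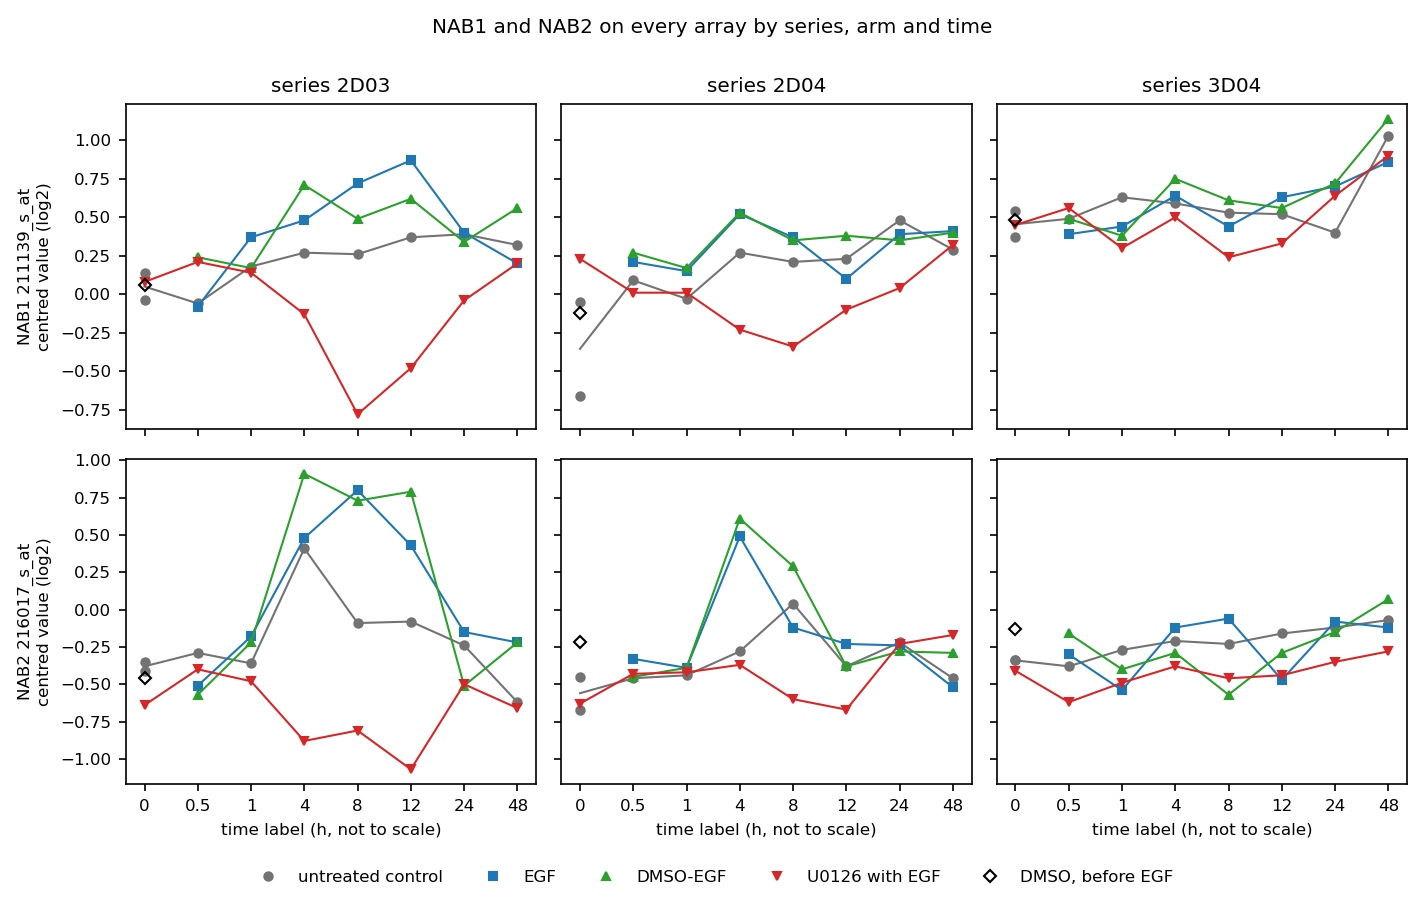
NAB1 (211139_s_at, upper row) and NAB2 (216017_s_at, lower row) by series: value on the presumed log2 scale, relative to an unstated reference, against the time label (not to scale), with 1 point per array and lines through the means of each arm. In 2D03 and 2D04 U0126 lies lowest at 4 to 12 h, and the arms come close again at 24 and 48 h. In 3D04 the U0126 line of NAB1 lies below that of DMSO-EGF at 4 to 12 h (0.50, 0.24 and 0.33 against 0.75, 0.61 and 0.56), and the NAB2 lines cross.

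NAB1, the second co-repressor, fell in the same window on each of its 3 probe sets. For 211139_s_at the DMSO-EGF arrays of 4, 8 and 12 h read 0.71, 0.49 and 0.62 in 2D03 and 0.53, 0.35 and 0.38 in 2D04. The U0126 arrays read -0.13, -0.78 and -0.48 in 2D03 and -0.23, -0.34 and -0.10 in 2D04. The arms did not overlap.

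For 208047_s_at the DMSO-EGF arrays read 0.51, 0.62 and 0.60 in 2D03 and 0.88, 0.64 and 0.88 in 2D04, against -0.35, -1.01 and -0.79 and 0.11, 0.02 and 0.12 in U0126. For 209272_at they read 1.27, 1.24 and 1.09 in 2D03 and 0.67, 0.39 and 0.49 in 2D04, against 0.17, 0.15 and -0.41 and -0.17, 0.00 and 0.15 in U0126. On both probe sets every DMSO-EGF array lay above every U0126 array.

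The middle NAB1 differences were log2 -0.86 for 211139_s_at (SE 0.11, 1.81-fold, limma adjusted p = 6.5e-07), -1.01 for 208047_s_at (SE 0.16, 2.01-fold, adjusted p = 5.6e-05) and -0.88 for 209272_at (SE 0.18, 1.84-fold, adjusted p = 0.0011). Without the low actin ratio pair they were -0.72, -0.68 and -0.81, with adjusted p of 0.00016, 0.01 and 0.022. These 3 probe sets and 216017_s_at of NAB2 were called under all 23 alternatives of this window. By time, 211139_s_at was called at 4, 8 and 12 h (-0.80, -0.98 and -0.79), and 208047_s_at at 8 and 12 h (-1.13 and -1.08). Without the pair, with 1 U0126 array left at each time, 211139_s_at stood at -0.76 and -0.60 and 208047_s_at at -0.61 and -0.62, none of them called (adjusted p of 0.21 to 0.98). At 4 h 3 member genes were called, where 0.433% of all probe sets were called, and between 1 and 2 genes with 1 array of that time left out.

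Early and late, the NAB differences did not pass in the 2D fit. The joint fit of all 3 series called 3 member probe sets late in 2D, in EGR1 and a NAB gene, and 27.9% of all probe sets. On NAB1 211139_s_at U0126 lay below DMSO-EGF at all 14 places of the 2D series, early and late included. In the late window 208047_s_at, 209272_at and 211139_s_at of NAB1 stood at log2 -0.08, 0.01 and -0.28, and 212803_at and 216017_s_at of NAB2 at -0.15 and -0.07 (limma adjusted p of 0.2 or more). On 211139_s_at the late arms still did not overlap: DMSO-EGF read 0.34, 0.56, 0.35 and 0.40, and U0126 read -0.04, 0.20, 0.04 and 0.32. On the other 4 NAB probe sets the late arms overlapped.

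The time course was tested directly as a change of the U0126 difference between windows. From early to middle 0.504% of all probe sets were called, among them NAB2 216017_s_at (log2 -1.20, limma adjusted p = 0.0057) and NAB1 211139_s_at (-0.74, adjusted p = 0.026). The NAB1 call was lost without the low actin ratio pair (-0.60, adjusted p = 0.2). From middle to late 1.78% were called, and NAB2 216017_s_at rose by 1.16 (adjusted p = 0.0042, and 1.06 with adjusted p = 0.022 without the pair). The 3 NAB1 probe sets rose by 0.93, 0.88 and 0.57 without passing (adjusted p of 0.051, 0.11 and 0.073), and all passed with the series as a block (0.0034, 0.001 and 0.021). NAB2 212803_at, at 0.80 with adjusted p = 0.36, also passed with the block (0.0043).

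**Figure D3:**
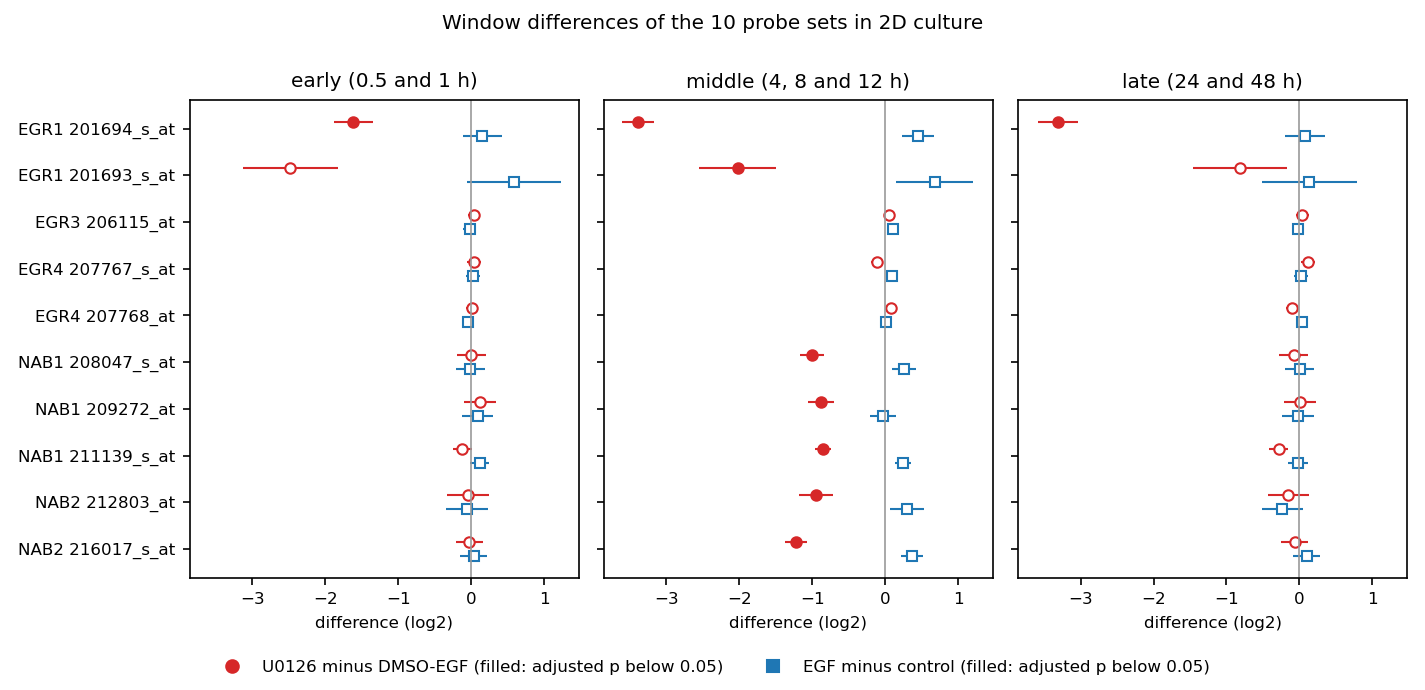
U0126 minus DMSO-EGF (red) and EGF minus control (blue) in 2D for the 10 probe sets in each window, as log2 difference with its standard error. Filled points have an adjusted p below 0.05. EGR1 201694_s_at lies at -1.61, -3.39 and -3.31 in the early, middle and late window, NAB1 and NAB2 lie below 0 mainly in the middle window (-0.86 to -1.23), and EGR3 and EGR4 lie near 0. No EGF point is filled.

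EGR3 and EGR4, the other zinc finger members measured, were not called in any comparison made here. Over all 96 arrays EGR3 206115_at lay between -0.43 and 0.27, EGR4 207767_s_at between -0.41 and 0.41, and EGR4 207768_at between -0.29 and 0.37. In the middle window EGR3 read -0.30 to -0.03 in DMSO-EGF and -0.18 to 0.14 in U0126 of the 2D series. Those arms overlapped, as did those of EGR4 207767_s_at, at -0.18 to 0.41 and -0.16 to 0.07. Since the values are relative, a transcript near background and one that is measured well but steady cannot be told apart.

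Whether EGF itself moved these genes was asked by comparing EGF with control arrays. In 2D 0% of probe sets were called in any window, although 145, 474 and 146 of 22406 passed limma's unadjusted p under 0.05 (early, middle, late), among them 0, 2 and 0 of the 10 members. EGR1 201694_s_at was high in the control arm too: in 2D03 control read 3.28, 3.29, 2.80, 2.39, 2.13, 1.66 and 0.12 over time and EGF read 3.47, 3.20, 3.13, 2.77, 2.71, 1.78 and 0.18. In 2D04 control read 3.01, 2.95, 1.94, 1.71, 1.23, 0.83 and 0.22, and EGF 3.22, 3.25, 2.57, 2.10, 1.59, 0.75 and 0.42. EGF lay above control at 12 of these 14 places, and the ranges of the arms overlapped in each window.

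The EGF difference of EGR1 201694_s_at was log2 0.15, 0.45 and 0.08 in the early, middle and late window (SE 0.27, 0.22 and 0.27). On 201693_s_at it was 0.59, 0.68 and 0.14. A joint fit of the arrays of both cultures, whose SE for the middle value was 0.15, called 201693_s_at there (adjusted p = 0.042), where it called 0.0982% of all probe sets. Within that joint fit the 2D03 difference was 1.04 (adjusted p = 0.043, with 0.0268% called).

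For NAB2 216017_s_at the EGF arrays of 4, 8 and 12 h read 0.48, 0.80 and 0.43 in 2D03 and 0.49, -0.12 and -0.23 in 2D04. The control arrays read 0.41, -0.09 and -0.08 in 2D03 and -0.28, 0.04 and -0.38 in 2D04. EGF was higher at 5 of the 6 places, and the difference of 0.37 (SE 0.15) did not pass after adjustment. With the DMSO-EGF arrays added to the EGF arm it was 0.46 (SE 0.13, limma adjusted p = 1). Of the members, 4 of 10 had an unadjusted p under 0.05 in that test, as did 595 of all 22406 probe sets, and 0% were called. In 2D, DMSO-EGF and EGF differed by at most 0.35 on any member in a window. There 0 of 10 members had an unadjusted p under 0.05. In 3D, 2 of 10 members had an unadjusted limma p under 0.05 early, 1 in the middle window and 0 late. Of all 22406 probe sets 787, 1040 and 615 did so in these 3D windows, and 0% were called.

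U0126 was also set against the control arm, which received neither EGF nor inhibitor and is shared with the EGF comparison. In the early window 0 members were called (0% of all probe sets). An unadjusted limma p under 0.05 was seen for 2 of 10 members and 257 of 22406 probe sets. In the middle window 4 members were lower, against 6.92% of all probe sets called and 4.84% called lower. These were EGR1 201694_s_at (log2 -2.61, limma adjusted p = 5.3e-11), NAB1 209272_at (-0.74, 0.0059), NAB1 211139_s_at (-0.61, 1.8e-04) and NAB2 216017_s_at (-0.67, 0.0034). Without the low actin ratio pair EGR1 (-2.76, adjusted p = 1.8e-09) and NAB1 211139_s_at (-0.47, 0.019) were called, while NAB1 209272_at (-0.67, 0.077) and NAB2 216017_s_at (-0.57, 0.083) were not. In the late window EGR1 201694_s_at alone was called (-3.04, 1.6e-10), against 10.6% of all.

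EGR1 also changed without treatment over the 48 h in monolayer cells. The 4 control arrays of 0 h read 3.00 and 3.22 in 2D03 and 2.87 and 2.67 in 2D04 on 201694_s_at. The control arrays of 48 h read 0.12 in 2D03 and 0.22 in 2D04, below every earlier control array. Relative to 0 h the mean moved by log2 0.21, 0.18, -0.57, -0.89 and -1.26 at 0.5, 1, 4, 8 and 12 h, none of which passed (limma adjusted p = 0.22 at 12 h, where 0.0937% of all probe sets were called). Taken by series, 201693_s_at was lower in the middle window of 2D03 than at 0 h (log2 -1.35, limma adjusted p = 0.041, with 0.406% called).

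At 24 h the control level of EGR1 had fallen 3.24-fold (log2 -1.70, SE 0.33, limma adjusted p = 0.0095), against 0.228% of all probe sets, and at 48 h 6.82-fold (-2.77, adjusted p = 1.5e-06), against 4.33%. The 24 h call was lost without the 24 h control array of 2D03 (-2.11, adjusted p = 0.076) or of 2D04 (-1.28, adjusted p = 0.49). 201693_s_at moved by -1.89 and -2.20 at these times (adjusted p of 0.55 and 0.12), and both passed with the series as a block (0.0053 and 0.00015). NAB1 211139_s_at went the other way, by 0.59 and 0.46 (adjusted p of 0.13 and 0.11), and passed with the block (0.031 and 0.043).

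**Figure D4:**
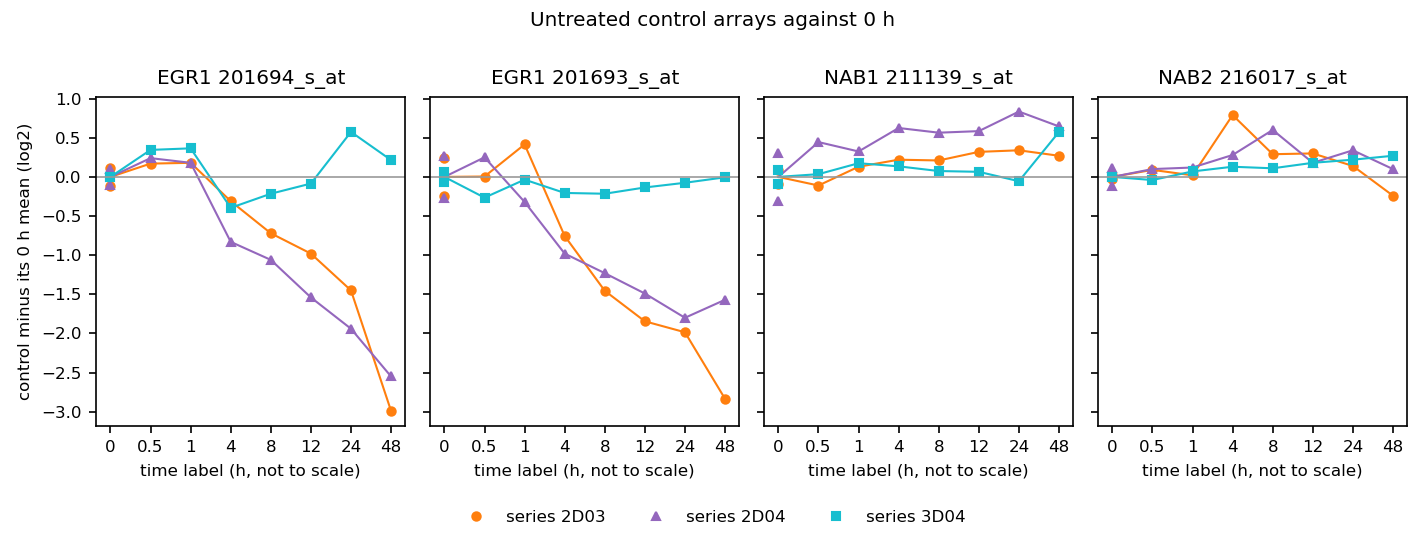
Control arrays of both EGR1 probe sets, NAB1 211139_s_at and NAB2 216017_s_at against the time label (not to scale), each minus the mean of its series' 0 h control arrays (log2), with 1 point per array and 1 colour per series. EGR1 201694_s_at ends far below its start in 2D03 and 2D04 and near its start in 3D04.

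The treated arms fell from their own 0 h arrays as well. From 0 h to 48 h EGR1 201694_s_at moved by log2 -2.30 in DMSO-EGF (limma adjusted p = 8.7e-04, with 1.24% of probe sets called) and by -5.02 in U0126, a 32.5-fold fall (adjusted p = 2.4e-12, with 16% called). In U0126 it had already moved by -2.92 at 4 h (adjusted p = 7.2e-06), where 0.437% were called, and by -2.98, -3.31 and -4.63 at 8, 12 and 24 h, where 1.91%, 2.93% and 5.18% were called. At 8 h NAB1 211139_s_at was also called, from 0.08 to -0.78 in 2D03 and from 0.23 to -0.34 in 2D04 (log2 -0.72, limma adjusted p = 0.031), a call lost without the low actin ratio pair (-0.50, adjusted p = 0.72). The NAB2 probe sets did not fall in U0126 at 4 h: 216017_s_at moved by 0.01 and 212803_at by 0.25 from 0 h. In DMSO-EGF they moved by 1.10 and 1.22 over the same time, which did not pass (limma adjusted p of 0.3 and 1, with 0.00446% of all probe sets called).

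In 3D culture EGR1 201694_s_at read lower at 0 h than in monolayer. Without the inhibitor, control arrays lay below 0 h at 4 to 12 h and above it at 24 and 48 h. On 201694_s_at DMSO-EGF read 1.59, 1.87, 1.22, 1.21, 1.21, 1.85 and 1.58, and U0126 read -0.24, -0.83, -1.19, -1.61, -1.86, -2.64 and -2.46. The arms were apart at every time, with the widest gaps at 24 and 48 h. U0126 stood 4.81-fold lower early (log2 -2.27, SE 0.20, limma adjusted p = 1.9e-06, with 0.295% called), at -2.77 in the middle window (7.6e-10, with 13.1% called and 7.12% called lower) and 19.2-fold lower late (-4.27, adjusted p = 4e-12, with 35.2% called). With 1 array per arm and time in 3D, the spread came from the times within each window.

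201693_s_at of EGR1 varied little in 3D, between -0.78 and 0.04 over all 32 arrays. It fell by 0.53 early (log2 -0.53, limma adjusted p = 0.0063) and by 0.42 late (log2 -0.42, 8.3e-04), and stood at -0.18 in the middle window (0.12). Its early call was lost without the arrays of 1 h (-0.38) and its late call without those of 24 h (-0.27), which left 1 array per arm. The joint fit of both cultures made neither call (-0.52 early, and -0.42 late with adjusted p = 0.24). The 2 probe sets of EGR1 thus gave differences of different size in the same arrays.

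The NAB genes moved less in 3D. NAB2 212803_at read -0.17, -0.40 and -0.41 in DMSO-EGF at 4, 8 and 12 h and -0.53, -0.92 and -0.92 in U0126, which did not overlap (log2 -0.46, SE 0.10, limma adjusted p = 0.0037). Without the arrays of 8 h or 12 h the difference was -0.43 and -0.44 and no longer passed (adjusted p = 0.056 in both). NAB2 216017_s_at read -0.29, -0.57 and -0.29 against -0.38, -0.46 and -0.44, which overlapped (-0.04, adjusted p = 0.85). NAB1 211139_s_at read 0.75, 0.61 and 0.56 against 0.50, 0.24 and 0.33 (-0.28, adjusted p = 0.032), which did not overlap. Without any 1 of the 3 times it was -0.31 to -0.24 and no longer passed (adjusted p of 0.1 to 0.25). The joint fit of both cultures did not call it either (-0.28, adjusted p = 0.11). No other NAB1 probe set was called in the middle 3D window. The 3D fit called 3 of 10 member probe sets there, in 3 genes and all lower, against 13.1% of all probe sets called and 7.12% called lower. KRT18 was lower and PTPRC higher in the same window, as given above.

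Late in 3D, NAB1 209272_at stood higher in U0126, at 1.14 and 1.67 against 0.79 and 1.37 at 24 and 48 h (log2 0.33, SE 0.09, limma adjusted p = 0.0084). The arms overlapped, and the call was lost without either time, which left 1 array per arm (log2 0.3 without 24 h and 0.35 without 48 h). It was also lost with quantile normalization (log2 0.15, adjusted p = 0.19) and in the joint fit of both cultures (log2 0.32, adjusted p = 0.059). EGF against control called 0% of probe sets in each 3D window (761, 791 and 763 at an unadjusted limma p under 0.05, with 0, 0 and 1 of the 10 members).

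Whether the U0126 difference itself differed between series was tested with an interaction term. Culture and series cannot be told apart here, since 3D culture is the single series 3D04. For EGR1 201693_s_at the 3D difference was smaller by 1.95 early (SE 0.31, limma adjusted p = 0.00068, with 0.0536% of probe sets called) and by 1.84 in the middle window (SE 0.25, adjusted p = 6.9e-06, with 2.84% called). In 3D this probe set lay between -0.78 and 0.04 on all arrays, inside the -1.13 to 0.96 of the U0126 arrays after 0 h in 2D. The other EGR1 probe set, 201694_s_at, was not called in these windows: 3D minus 2D was -0.65 early, towards a larger difference in 3D (adjusted p = 1), and 0.63 in the middle window (adjusted p = 0.18). In the middle window NAB2 216017_s_at (1.18, adjusted p = 7.6e-06), NAB1 209272_at (0.80, 2e-04) and NAB1 211139_s_at (0.57, 0.011) also moved less in 3D. The remaining NAB1 probe set and the other NAB2 probe set were not called in this comparison. Without the low actin ratio pair the NAB1 211139_s_at call was lost (0.38, adjusted p = 0.15) and the other middle calls held. Late, the U0126 difference of EGR1 201694_s_at was larger in 3D by 0.95 (log2 -0.95, SE 0.31, adjusted p = 0.039, with 9.1% called). This call was lost with quantile normalization (-0.21, adjusted p = 0.87). At 48 h the U0126 arrays read alike in all series, while DMSO-EGF read higher in 3D04 than in 2D03 and 2D04.

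The 2D series differed from each other in the middle window, where 9.24% of probe sets were called. U0126 minus DMSO-EGF was -2.89 in 2D03 and -1.16 in 2D04 for EGR1 201693_s_at, a gap of 1.73 (limma adjusted p = 0.00021, and 2.25 with 0.0011 without the low actin ratio pair). Without the pair the 2D03 U0126 arm of this window is the single array of 4 h, so its spread is taken from the other groups. The difference was -1.73 and -0.72 for NAB2 216017_s_at, a gap of 1.01 (adjusted p = 0.00058, and 1.08 with 0.019 without the pair). It was -1.23 and -0.52 for NAB1 209272_at, a gap of 0.71 (adjusted p = 0.0023, lost without the pair at 0.54 and 0.13). For the other 4 called members the difference was also larger in 2D03 (-3.68 and -3.10 for EGR1 201694_s_at), and these gaps did not pass the test.

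**Figure D5:**
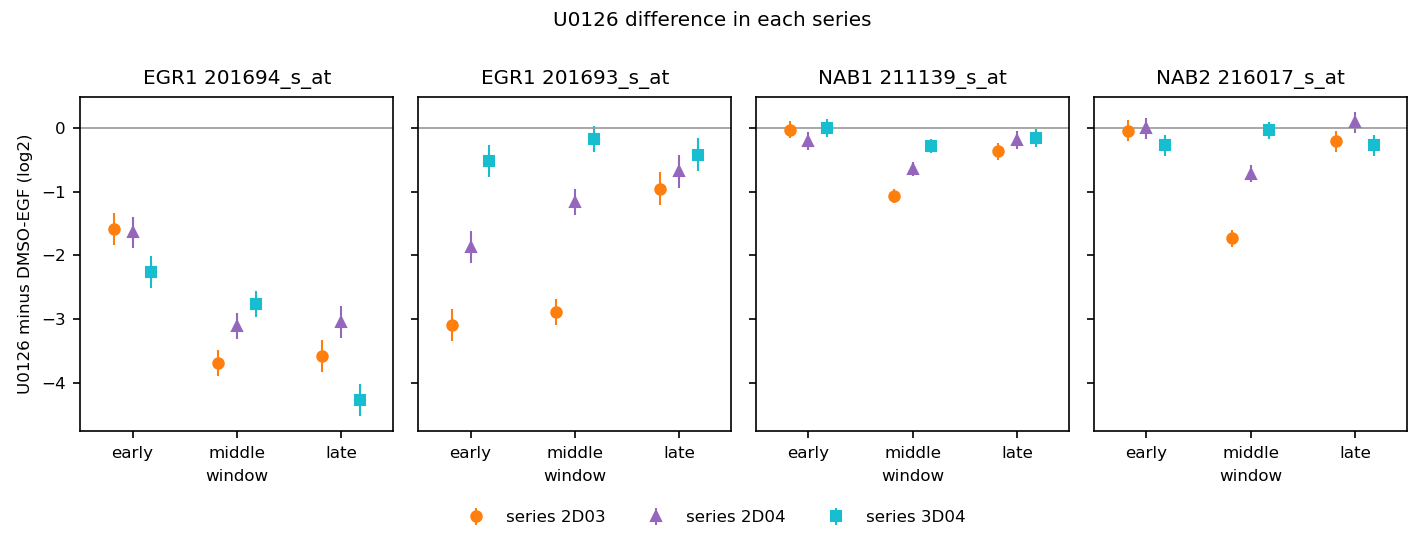
U0126 minus DMSO-EGF by series in the early, middle and late window, as log2 difference with its standard error, for both EGR1 probe sets, NAB1 211139_s_at and NAB2 216017_s_at. EGR1 201694_s_at is below 0 in each series and window, while NAB2 216017_s_at in the middle window goes from -1.73 in 2D03 to -0.72 in 2D04 and -0.04 in 3D04.

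The control arm differed between cultures too, with the times of a window again serving as repeats. From 0 h to the late window EGR1 201694_s_at moved by log2 -2.22 in 2D03 (limma adjusted p = 0.00024, with 2.25% called) and -2.25 in 2D04 (0.00013, with 7.28% called), and by 0.40 in 3D04 (0.7). The 3D control arrays read 1.25 and 1.26 at 0 h and 1.60, 1.62, 0.86, 1.04, 1.17, 1.83 and 1.47 after it. The gap between 3D and 2D was 2.63 for 201694_s_at (SE 0.49, limma adjusted p = 0.0013) and 2.01 for 201693_s_at (adjusted p = 0.0089), with 1.1% of all probe sets called. NAB1 rose on 1 probe set in the late control arrays of 2D04 (0.74 on 211139_s_at, adjusted p = 0.0023). It rose on a different one in those of 3D04 (0.66 on 209272_at, 0.041, with 4.31% called). The other NAB1 probe sets did not pass in these series, and 0 members were called higher in 2D03.

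Other genes of the pathway were read each from its probe set of largest standard deviation. Of 6 regulators of EGR transcription (SRF, 3 ELK factors and 2 MRTF coactivators), 0 were called early in 2D and 2 were lower in the middle window. These were SRF, the CArG box factor (log2 -0.38, limma adjusted p = 0.00018), and ELK3, a ternary complex factor (-1.29, adjusted p = 0.00014). Both were called without the low actin ratio pair too (-0.41 and -1.15). The list's median was -0.147, against 0.007 over all probe sets. Late in 2D, SRF (-0.27), ELK3 (-0.90) and ELK1 (-0.47) were lower. In the middle 3D window ELK3 (-1.37) and ELK4 (-0.27) were lower and MRTFB, a coactivator of SRF, was higher (0.46). Late in 3D, 3 were lower and 1 was higher. Over all probe sets the shares called were 6.46% and 10.3% in the middle and late 2D windows and 13.1% and 35.2% in those of 3D.

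Of 12 immediate early genes 11 were measured, and FOS, a subunit of AP-1, was the 1 called lower early in 2D (log2 -1.61, limma adjusted p = 0.03). It was the other probe set among the 2 called in that window. In the middle window 5 of the 11 were lower, with a list median of -0.948: FOS (-1.42), IER2 (-1.42), IER3 (-1.32), JUNB (-1.30) and MCL1 (-2.01), the last an anti-apoptotic BCL2 family member. These 5 were called without the low actin ratio pair as well, with MCL1 then at -1.43. Late, IER2 (-0.86) and IER3 (-1.08) were lower. Over all probe sets 6.46% were called in the middle 2D window, 4.68% of them all being called lower, and 10.3% in the late one. In 3D 5 of the 11 were lower in each window, against 0.295% of all probe sets called early, 13.1% in the middle window and 35.2% late.

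Genes known as EGR targets moved in both directions. Of 20 listed, 17 were measured, and in the middle 2D window 2 were lower: PDGFA, a growth factor chain (log2 -0.99, limma adjusted p = 0.024), and TGFB1, a cytokine (-0.57, adjusted p = 0.029). Both calls were lost without the low actin ratio pair (-1.08 with adjusted p = 0.08, and -0.48 with 0.28). The list median was -0.043. Late in 2D, THBS1, a matrix glycoprotein (0.99, adjusted p = 0.027), and ID3, an inhibitor of basic helix-loop-helix factors (1.66, adjusted p = 0.046), were higher and 0 were lower. Late in 3D, 4 were lower, among them PDGFA (-0.83), and 2 were higher, THBS1 (1.01) and ID3 (2.47). These 6 of 17 lie near the 35.2% of all probe sets called in that window, and the 2D counts of 2 of 17 stand against 6.46% (middle) and 10.3% (late).

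Partners of the EGR and NAB proteins moved little. Of 5 listed, 4 were measured, and 0 were called in any 2D U0126 window. In 3D, EP300, an acetyltransferase coactivator, was higher in the middle (log2 0.39, limma adjusted p = 0.032) and late window (0.48, adjusted p = 0.013), and HCFC1, a transcriptional coregulator, was lower late (-0.41), where 13.1% and 35.2% of all probe sets were called. Of 3 factors that read GC-rich sites related to those of EGR, namely WT1, SP1 and SP3, 0 were called in any U0126 window.

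The pattern of each member over the arrays was described by Pearson's r after each 2D series was set to its own mean. Arrays share arms and times, so no test is given. The EGR1 probe sets had r = 0.855 with each other over 64 2D arrays and 0.827 over 32 3D arrays. Most like EGR1 201694_s_at in 2D were MAFF, a small MAF factor (r = 0.948, and 0.946 in 3D), CXCL8, a chemokine (0.933 and 0.833), and ZNF804A (0.924 and 0.887).

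Within each NAB gene the probe sets followed each other in 2D, and those of NAB2 less closely in 3D. The NAB2 probe sets had r = 0.813 in 2D and 0.459 in 3D, the NAB1 probe sets 0.71 to 0.745 in 2D and 0.65 to 0.761 in 3D, and NAB1 211139_s_at with NAB2 216017_s_at 0.70 in 2D. In 2D EGR1 201694_s_at had r = 0.374 with NAB2 216017_s_at and 0.242 with NAB1 211139_s_at. Most like NAB2 212803_at were SDC4, a syndecan (0.775 in 2D and 0.431 in 3D), ZYX, a focal adhesion protein (0.76 and 0.549), and CDC42SE1 (0.755 and 0.181).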

How the data were processed

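Per the submitters' processing notes, the authors summarised the arrays with RMA, which gives log2 values per probe set; the deposited table was used as given, and its log base and reference are not given in the sources used here. Values lie around 0 on every array, so they were taken as relative and only differences were tested, and the number of arrays limits the precision. Titles with 05h were taken to mean 0.5 h.

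Group means were fitted and contrasts tested in R 4.3.3 with limma 3.58.1 (lmFit and eBayes, trend on). P-values were adjusted by Benjamini-Hochberg over 22406 probe sets, and those under 0.05 were called; 524 array controls were left out. The 2D fit used 64 arrays in 31 groups (33 residual degrees of freedom) and the 3D fit 32 arrays (13). Tests between series used the arrays after 0 h, and control drift by series all 96. In both, the times of a window served as repeats. Window values are means over times. Each other gene was read from its probe set of largest SD. The procedure was tested on simulated data.

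Named were all probe sets of the members, the 3 genes most correlated with EGR1 and with NAB2, and up to 4 genes with the smallest adjusted p per pathway list and comparison (JUNB was added after its values were seen). Members and lists were chosen with earlier results of these data known, and the change of the U0126 difference between windows, the joined EGF arms and some fits without the pair of low actin ratio were added after seeing the data. The 2D repeats pair through the series named in the titles: over 465 pairs of groups, their deviations from group means correlated at r = 0.197 to 0.79 (median 0.6), so a replicate block was an alternative. Other alternatives were quantile normalization, array weights, 1 value per gene, a fit of 2D and 3D arrays together, single series and leaving out arrays or times. Genes came from GEO's platform annotation. Promoters and gene positions came from RefSeq on GRCh38.p14.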

Additional observations from a re-analysis of the deposited data

Results flagged for a closer look

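The U0126 difference of several members differed between cultures by an interaction term in limma. On the log2 scale, 3D minus 2D was 1.95 early and 1.84 in the middle window for EGR1 201693_s_at, and in the middle window 0.8 for NAB1 209272_at, 0.57 for NAB1 211139_s_at and 1.18 for NAB2 216017_s_at. The other EGR1 probe set, 201694_s_at, was not called in those windows (-0.65 early, adjusted p = 1, and 0.63 in the middle window, adjusted p = 0.18). In the middle window the remaining NAB1 probe set and the other NAB2 probe set were not called either. Without the pair of arrays with low actin 5' to 3' signal the NAB1 211139_s_at value was 0.38 and did not pass (adjusted p = 0.15). Late, 3D minus 2D was -0.95 for EGR1 201694_s_at, a larger difference between the arms in 3D, which quantile normalization took to -0.21 (adjusted p = 0.87).

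The U0126 difference also differed between the monolayer series in the middle window, 2D04 minus 2D03, by 1.73 for EGR1 201693_s_at, 0.71 for NAB1 209272_at and 1.01 for NAB2 216017_s_at. The 2D03 U0126 arm holds that pair. Without it that arm is a single array, and the values were 2.25, 0.54 (adjusted p = 0.13, no longer called) and 1.08.

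The drift of control arrays from 0 h to the late window differed between cultures by 2.63 for EGR1 201694_s_at and 2.01 for EGR1 201693_s_at.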

How the results depend on the processing

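Results are counts of member genes called, out of 5, by limma with an adjusted p under 0.05. Over all alternatives, 436 such counts stayed within 1.5 times of the 34 reported and 62 moved. Of single probe sets 546 kept direction and side of the threshold, 95 were weaker and 0 reversed. EGR3 and EGR4 were called under none of the alternatives run.

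For U0126 in 2D, with the mean of a gene's probe sets the early, 1 h and 48 h counts went from 1 to 0, and the change from middle to late went from 1 to 2. With the probe set of largest SD the 4 h count and the change from early to middle went from 3 to 1. Without the pair of arrays with low actin ratios the 8 h and 12 h counts went from 3 to 1, and 12 h gave 1 with array weights too. The late count of 1 became 2, and the middle EGF count of 0 became 1, in the joint fit of both cultures. With 1 array or series left out, counts ranged from 0 to 1 (early), 0 to 0 (1 h), 1 to 2 (4 h), 1 to 3 (8 h and 12 h), 2 to 3 (early to middle) and 1 to 2 (middle to late).

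With the replicate block, which removed no call of a member gene, the 2D control drift at 24 h and at 48 h and the change from middle to late gave 2 genes in place of 1, also without the low actin ratio pair (where the block left 1 at 12 h). The block called 3736 probe sets in the middle U0126 window, against 1447. Drift at 24 h gave 0 with the mean per gene and 0 to 1 with 1 array left out, and at 48 h 2 with quantile normalization and 1 to 2 with 1 array left out. Leaving out the less variable probe sets (SD below the median) gave 2 for the change from middle to late.

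In 3D the middle count of 3 ranged from 1 to 3 with 1 time left out, and the late count of 2 became 1 with quantile normalization, the largest-SD probe set, the joint fit or either time left out. Between 3D and 2D, the early count went from 1 to 0 with either rule for 1 row per gene, the middle count from 3 to 0 with the largest-SD probe set, and the late count from 1 to 0 with quantile normalization or the mean per gene. Between 2D04 and 2D03 the middle count went from 3 to 0 with the largest-SD probe set, which leaves out the 3 probe sets that were called. The same rule leaves out every probe set called between 3D and 2D in the early and middle windows. It also leaves out the NAB probe sets called in 2D at 4 h and from early to middle, and late in 3D. The cause of the other shifts was not tested.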
